A study of Mus musculus with 24 samples.

Results

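The Serpina3 cluster is a run of closely related protease inhibitor genes on mouse chromosome 12. The 9 genes described here are Serpina3b, Serpina3c, Serpina3f, Serpina3g, Serpina3h, Serpina3j, Serpina3k, Serpina3m and Serpina3n, out of 48321 gene symbols in the count tables. They were chosen by measured values: Serpina3m and Serpina3n had some of the smallest p-values in an earlier comparison of CKO with WT read counts of the same pools, and the rest of the cluster was added by name. Their genotype differences are therefore a description, with no test. All 9 were among the 21477 genes with enough reads to be tested. The tables hold 5 further Serpina3 genes and pseudogenes.

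Adult C57BL/6 mice were the source of the RNA, which came from hippocampal cells sorted for GFP. All animals carried the Hes5::CreERT2 driver and the Rosa26R-CAG::GFP reporter. The wild type (WT) had Notch2 wt/wt and the conditional knockout (CKO) had Notch2 flox/flox. Both received tamoxifen for 5 days followed by a chase of 1 day. Cre was expressed from Hes5, a Notch target gene, and recombination is therefore limited to cells that used this promoter. Each genotype had 3 samples made from pooled animals, each with 2 libraries, and every library was run on 2 lanes. The labels do not say whether pools shared animals, and the spread between pools may be technical.

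Serpins are inhibitors that act as bait for a protease. The target enzyme cuts an exposed loop near the end of the inhibitor, the reactive centre loop, and is then trapped in a stable complex, so the sequence of this loop decides which protease is caught. Clade A holds secreted serpins, among them alpha-1-antitrypsin and alpha-1-antichymotrypsin. Mice have many copies related to the human alpha-1-antichymotrypsin gene SERPINA3, and Serpina3n is the copy best known in brain, where it is used as a marker of reactive astrocytes.

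The copies are alike along most of their coding sequence and differ at the reactive centre loop, which bears both on what they inhibit and on how well short reads can tell them apart. The stretch below is bases 1096 to 1191 of the 1254-base Serpina3n coding sequence, in exon 5 (chromosome 12, 104413445 to 104413540, plus strand), with the aligned stretch of the other 7 of the 9 genes that have a coding sequence in GENCODE M21 on GRCm38. It starts with 27 bases of the conserved hinge, goes on with the loop and ends with the next 18 bases. Capitals mark bases that differ from Serpina3n, and the Serpina3n line itself has none.
Serpina3n: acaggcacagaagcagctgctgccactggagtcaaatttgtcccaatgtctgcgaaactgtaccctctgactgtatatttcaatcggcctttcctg
Serpina3m: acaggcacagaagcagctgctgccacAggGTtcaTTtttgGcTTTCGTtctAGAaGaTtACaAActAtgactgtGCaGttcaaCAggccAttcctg
Serpina3k: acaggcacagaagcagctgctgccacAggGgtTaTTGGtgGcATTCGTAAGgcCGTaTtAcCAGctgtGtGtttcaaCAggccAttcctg
Serpina3c: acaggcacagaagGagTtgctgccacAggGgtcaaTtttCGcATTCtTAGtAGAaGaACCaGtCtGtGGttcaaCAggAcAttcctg
Serpina3f: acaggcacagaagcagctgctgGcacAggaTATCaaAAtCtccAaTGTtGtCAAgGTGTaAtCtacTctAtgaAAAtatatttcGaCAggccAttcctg
Serpina3g: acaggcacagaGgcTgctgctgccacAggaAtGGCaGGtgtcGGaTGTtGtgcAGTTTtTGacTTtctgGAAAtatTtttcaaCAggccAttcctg
Serpina3j: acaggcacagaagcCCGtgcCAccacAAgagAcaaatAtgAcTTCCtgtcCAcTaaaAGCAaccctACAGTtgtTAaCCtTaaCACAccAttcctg
Serpina3b: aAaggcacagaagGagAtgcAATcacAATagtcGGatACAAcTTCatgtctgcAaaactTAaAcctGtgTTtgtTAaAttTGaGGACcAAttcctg
In the hinge Serpina3m and Serpina3k each differed from Serpina3n at 1 base (96.3% identity). In the loop that follows, Serpina3m differed at 24 of 51 bases (52.9% identity). Over the 7 genes the loop was 42.2% (Serpina3k) to 58.8% (Serpina3b) identical to that of Serpina3n, whereas the hinge was 74.1% (Serpina3b) to 96.3% identical. The 18 bases after the loop were 83.3% identical in Serpina3m, Serpina3k and Serpina3g and 77.8% in Serpina3c and Serpina3f. They were 61.1% identical in Serpina3j and 55.6% in Serpina3b, where they differed more than the loop. Over the aligned coding sequence, identity to Serpina3n was 85.5% for Serpina3c, 85.2% for Serpina3m, 84.7% for Serpina3f, 84.3% for the short 744-base reading frame of Serpina3g, 82.9% for Serpina3k, 81.6% for Serpina3j and 78.9% for Serpina3b. Serpina3m was closer to Serpina3k (91.7%) and Serpina3c (89.5%) than to Serpina3n. The plot of identity along the coding sequence shows the drop at the loop.

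**Figure D1:**
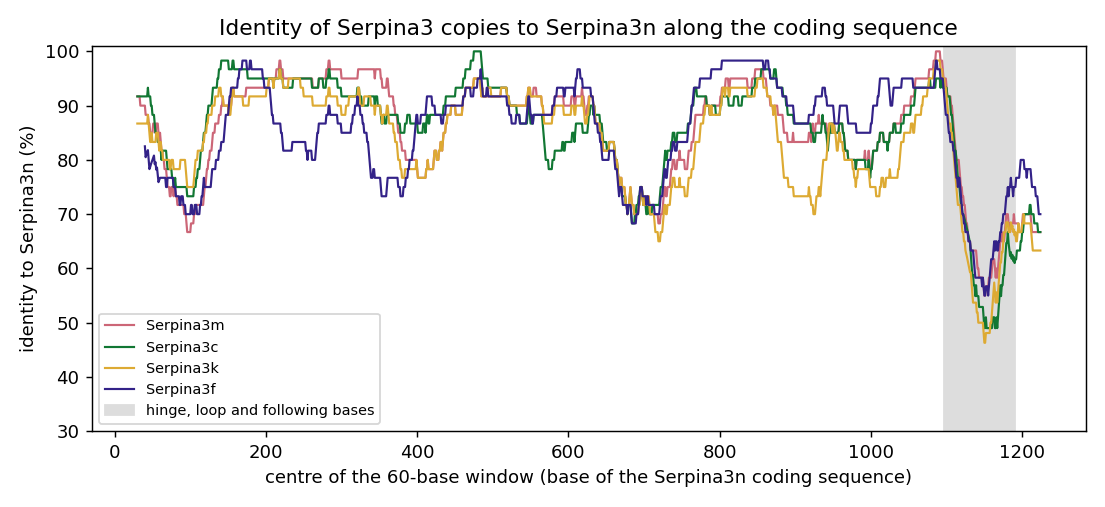
Identity (%) of Serpina3m, Serpina3c, Serpina3k and Serpina3f to Serpina3n in 60-base windows along the Serpina3n coding sequence (x axis, base at the window's centre). The hinge, the loop and the 18 bases after it are shaded. The lines are lowest in the shaded stretch, at 46.3% for Serpina3k and 55.0% for Serpina3m, while the highest windows reach 98.3% to 100%.

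Serpina3n and Serpina3c are also alike before the start of the gene. The 250 bases upstream of the RefSeq start are shown because the pair are 92.7% identical there and both hold the letters of a glucocorticoid receptor motif, marked in capitals. Both are from RefSeq on GRCm38.p6, Serpina3n at chr12:104406458-104406707 on the plus strand and Serpina3c at chr12:104153873-104154122 on the minus strand, each written on its gene's own strand.
Serpina3n upstream: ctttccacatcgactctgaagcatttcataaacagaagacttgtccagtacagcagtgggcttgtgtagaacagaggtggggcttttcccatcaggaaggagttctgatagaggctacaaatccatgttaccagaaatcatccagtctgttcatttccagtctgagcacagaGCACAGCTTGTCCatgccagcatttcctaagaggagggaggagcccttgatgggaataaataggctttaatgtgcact
Serpina3c upstream: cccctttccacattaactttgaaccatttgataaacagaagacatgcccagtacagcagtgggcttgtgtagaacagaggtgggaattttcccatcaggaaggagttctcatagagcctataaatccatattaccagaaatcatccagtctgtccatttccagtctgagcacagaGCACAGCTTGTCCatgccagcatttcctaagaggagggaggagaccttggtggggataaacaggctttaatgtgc
Of the 9 genes, 6 had an entry in the RefSeq table (Serpina3b, Serpina3c, Serpina3f, Serpina3g, Serpina3j and Serpina3n). Identity of the other upstream stretches to that of Serpina3n was 75.7% for Serpina3b, 71.7% for the closer of the Serpina3f starts, 62.6% for Serpina3j and 61.2% for Serpina3g. These windows depend on the RefSeq start. That of Serpina3g ends at 104236146, before the GENCODE start of the gene at 104236245. That of Serpina3j ends at 104314569, past its GENCODE start at 104314553. Low identity or a missing motif in these windows may therefore come from where the start was placed. The glucocorticoid receptor motif, searched as GNACA and TGTNC with 3 bases between them on both strands, began 78 bases before the start in Serpina3n and 75 before it in Serpina3c, and 0.387% of the 32851 windows in the table hold it. The STAT motif TTCNNNGAA was found in Serpina3f and Serpina3g and in 7.02% of windows, and a match to the NF-kB motif in Serpina3g alone and in 3.9% of windows. TGGGAA, the core letters bound by Rbpj, the DNA-binding partner of Notch, occurred in Serpina3b, Serpina3c, Serpina3f, Serpina3g and Serpina3n and in 21.6% of windows. In Serpina3g it shares bases with the STAT match. Also searched were the C/EBP motif TTNNGNAA and the Hes N-box CACNAG. Both occurred in each of the 6 genes but Serpina3j, and in 36.8% and 36.7% of windows. The TATA box letters occurred in Serpina3b, Serpina3c and Serpina3f (12.4% of windows), and the AP-1 motif in none of the genes (6.75%). These matches describe letters only, and binding was not measured.

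Reads in genes numbered 40366579 to 53984963 per pool, so that 1 read was worth 0.0175 to 0.0265 CPM (read counts scaled to a common library size, with TMM factors from edgeR). Notch2, the targeted gene, had 99.3 to 303 CPM in WT against 65.3 to 121 in CKO pools, which overlapped, and its log2 fold change of -0.86 (SE 0.45) was not significant (adjusted p = 0.79, edgeR). The table counts the whole gene, not the deleted exons alone. The cells are labelled as hippocampal stem cells. Astrocyte markers summed to 8420 to 13500 CPM in WT against 11800 to 17200 in CKO pools, with Slc1a3 alone at means of 5930 and 8160 CPM. Of the 9 astrocyte markers, 6 had a log2 fold change above 0 and 3 below. Among those below, S100b had 262 ± 34.2 CPM in WT against 187 ± 15.7 in CKO pools (-0.49, SE 0.2). Mature oligodendrocyte markers summed to 2350 to 6340 and 3170 to 5500 CPM. Radial glia-like stem cell markers, several of which astrocytes also express, summed to 2320 to 3060 and 2310 to 3600 CPM. Since markers are shared between these cell types, the sums do not give the share of astrocytes or of stem cells. CKO pool 2 stood apart, with the most gene symbols detected (38187, against 26502 to 33937 in the others) and the highest share of reads outside genes (35.3%, against 16.0% to 25.8%). WT pool 1 stood apart too, with red blood cell markers at 392 CPM against 14.3 to 118 in the others and excitatory neuron markers at 607 against 124 to 186. Fewer cells of a type and less RNA per cell cannot be told apart in such bulk samples.

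Serpina3n (chromosome 12, 104406729 to 104414329, plus strand), the last gene of the cluster along the chromosome, had 90.7, 103 and 139 CPM in WT pools 1, 2 and 3. It had 263, 291 and 256 CPM in CKO pools 1, 2 and 3. Every CKO pool was above every WT pool, with means of 111 ± 25.0 and 270 ± 18.6 CPM (SD, n = 3 pools each), a log2 fold change of 1.28 (SE 0.23). These values rested on 14203 reads in WT and 40960 in CKO. WT pool 1, the lowest in Serpina3n, is the pool with the high red blood cell and neuron markers, and without it the log2 fold change was 1.17. Without CKO pool 2 it was 1.23. The libraries of a pool were less alike in WT: they had 37.2 and 126 CPM in WT pool 1, 118 and 85.0 in pool 2, and 99.2 and 185 in pool 3. The CKO libraries had 281 and 237 CPM in pool 1, 308 and 277 in pool 2, and 292 and 222 in pool 3. All 6 CKO libraries were above all 6 WT libraries. The library with 37.2 CPM also had the most red blood cell marker reads (549 CPM), whose part in the difference was not tested. The coefficient of variation was 45.1% over the WT and 12.2% over the CKO libraries. Since libraries of 1 pool share its cells, the 12 libraries are not 12 replicates.

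Serpina3m (104338486 to 104394257, plus strand) was nearly absent in WT. It had 0.732, 0.378 and 0.954 CPM in WT pools 1, 2 and 3, from 37, 16 and 36 reads. In CKO pools it had 11.6, 14.1 and 9.58 CPM, from 662, 627 and 487 reads. The means were 0.688 ± 0.291 and 11.8 ± 2.25 CPM, a ratio of 17.1 and a log2 fold change of 4.09 (SE 0.63), the largest among the 9 genes. It was 4.15 without WT pool 1 and 3.94 without CKO pool 2. Single WT libraries held 4 to 33 of its reads and single CKO libraries 241 to 364, so that no library of a genotype carried the difference alone. In GENCODE M21 a transcript of Serpina3m begins at the first exon of Serpina3k and the genes overlap, so reads of the shared part cannot be assigned to either, and the sources used here do not name the annotation the authors counted with.

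Serpina3f, Serpina3c and Serpina3g followed at lower levels, with complete separation of the pools. Serpina3f (104214544 to 104221129, plus strand) had 0.752, 0.755 and 0.98 CPM in WT against 5.02, 5.59 and 3.97 in CKO pools, a log2 fold change of 2.55 (SE 0.64). Serpina3c (104146382 to 104153870), the only member on the minus strand, had 0.316, 0.354 and 0.45 CPM in WT against 2.61, 2.69 and 2.03 in CKO pools, a log2 fold change of 2.70 (SE 0.75). Serpina3g (104236245 to 104241939, plus strand), known from activated lymphocytes, where its product inhibits cathepsins, had 1.21, 1.65 and 1.4 CPM in WT against 3.0, 2.87 and 2.58 in CKO pools, a log2 fold change of 0.99 (SE 0.65). The 3 genes thus kept the order of Serpina3n, with low WT and high CKO pools, but the ratio of means ran from 1.98 for Serpina3g to 6.54 for Serpina3c. Serpina3h (104247905 to 104253669, plus strand), annotated as a transcribed pseudogene, had 5, 2 and 0 reads in WT pools and 30, 38 and 17 in CKO pools, for a log2 fold change of 3.44 (SE 1.21). With 7 WT reads in all, the size of that change is loosely set, and it became 4.43 without WT pool 1.

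In the remaining 3 genes the pools overlapped. Serpina3j (104314553 to 104320725, plus strand) had 0.198, 0.448 and 0.636 CPM in WT against 0.596, 2.4 and 0.866 in CKO pools, with CKO pool 2 far above the other 5. Its log2 fold change of 1.59 (SE 0.94) became 0.77 without that pool. Serpina3k (104338486 to 104346144, plus strand), abundant in liver as contrapsin, had 1, 3 and 79 reads in WT and 51, 68 and 64 reads in CKO pools. Of the 79 reads of WT pool 3, 72 came from 1 of its libraries, and the log2 fold change of 0.76 (SE 1.52) became 4.70 without that pool. Serpina3b (104127996 to 104139545, plus strand), the first gene of the cluster along the chromosome, had 12, 13 and 1 reads in WT and 0, 59 and 2 in CKO pools. Of the 59, 53 were in 1 library, and the log2 fold change of 1.23 (SE 1.82) became -3.14 without CKO pool 2, so no direction can be given for Serpina3b.

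Counted over the cluster, the pools did not overlap for 6 of 9 genes, all higher in CKO, namely Serpina3c, Serpina3f, Serpina3g, Serpina3h, Serpina3m and Serpina3n. Of all genes tested, 7.67% had this pattern, and 8.17% the opposite one, which 0 of the 9 had. The same 6 genes had no overlap between the 6 WT and 6 CKO libraries, against 0.41% of all genes, and 0 of the 9 had the opposite pattern, against 0.321%. All 9 log2 fold changes were above 0 (47.2% of all genes), with a median of 1.59 against -0.059 over all genes tested. Adjusted over all genes, edgeR called 0 of the 9, as it called 0% of the 21477 genes. In edgeR 5.91% of all genes had an unadjusted p under 0.05. DESeq2 called 124 genes, and how many of the 9 are among them was not recorded. Its log2 fold changes were 4.1 (SE 0.54) for Serpina3m and 1.28 (SE 0.29) for Serpina3n. Since the genes were chosen with this contrast known, nothing is read from these shares.

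**Figure D2:**
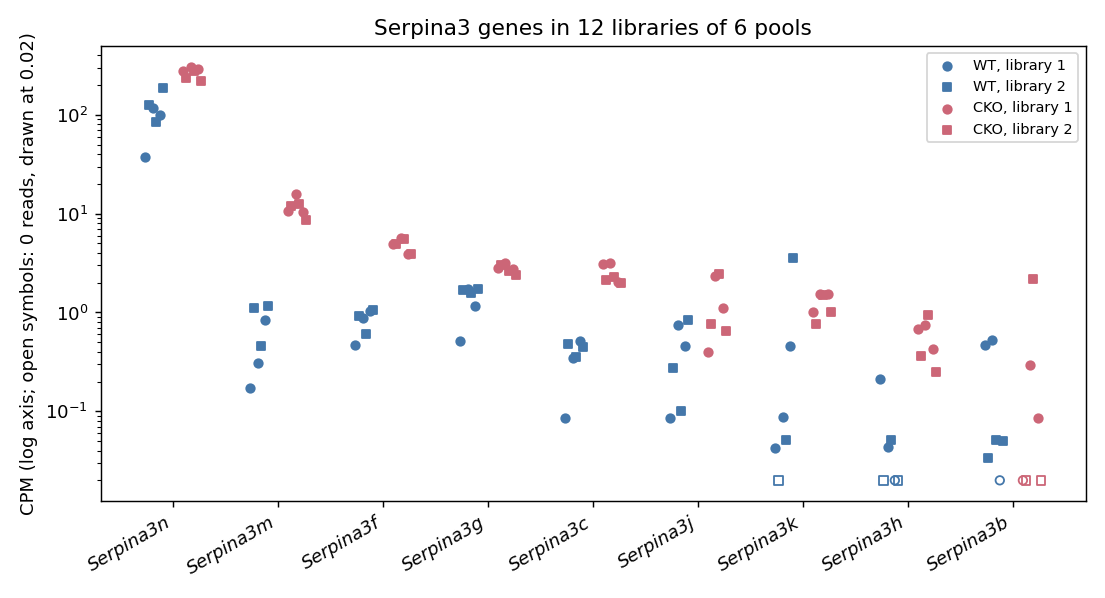
Level of each of the 9 Serpina3 genes (CPM, log axis) in the 12 libraries, 6 from WT and 6 from CKO pools, with open symbols for libraries that had 0 reads of the gene. The Serpina3n libraries span 37.2 to 185 CPM in WT and 222 to 308 in CKO, those of Serpina3m 0.171 to 1.15 and 8.66 to 16.0, and for Serpina3b, Serpina3j and Serpina3k the symbols of the genotypes overlap.

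The order of the genes by level per length changed below the top. In CPM per kilobase of exon, the WT means were 53.8 for Serpina3n, 0.675 for Serpina3g, 0.400 for Serpina3m and 0.362 for Serpina3f, and the other 5 lay between 0.034 and 0.355. Serpina3n exceeded Serpina3g, and Serpina3g exceeded Serpina3m, in each WT pool, while the genes below did not separate from their neighbours in the order. In CKO the means were 131 for Serpina3n, 6.84 for Serpina3m, 2.12 for Serpina3f and 1.34 for Serpina3g, an order that each CKO pool showed. Serpina3m was thus below Serpina3g in all 3 WT pools and above it in all 3 CKO pools.

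The summed level of the 9 genes, which does not change when a read is moved from 1 of them to another, was 94.2, 107 and 145 CPM in WT against 287, 322 and 276 in CKO pools. The log2 ratio of the means was 1.35. Serpina3n made up 95.5% to 96.3% of the summed reads in WT and 90.3% to 92.5% in CKO pools. The other 8 genes together had 3.93, 3.89 and 4.71 reads per 100 Serpina3n reads in WT and 9.23, 10.8 and 8.08 in CKO pools. The sum leaves out reads placed on the other 5 copies or set aside as ambiguous. In CKO the sum was higher in every pool, and a larger share of its reads lay outside Serpina3n.

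Of the 9 genes, those with a larger share in CKO in every library were Serpina3m, Serpina3f and Serpina3c. Per 100 Serpina3n reads of the same library, Serpina3m had 0.26 to 0.888 reads in WT (median 0.578) and 3.6 to 5.19 in CKO libraries (median 4.21). Serpina3f had 0.566 to 1.27 (median 0.734) and 1.35 to 2.06 (median 1.81), and Serpina3c 0.23 to 0.522 (median 0.337) and 0.703 to 1.09 (median 0.891). For these 3 genes the WT and CKO libraries did not overlap. For Serpina3g they did, at 0.943 to 1.85 (median 1.35) in WT and 0.937 to 1.28 (median 1.02) in CKO, so the genotypes were not separated for Serpina3g once set against Serpina3n. The ranges of Serpina3b, Serpina3h, Serpina3j and Serpina3k overlapped too.

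**Figure D3:**
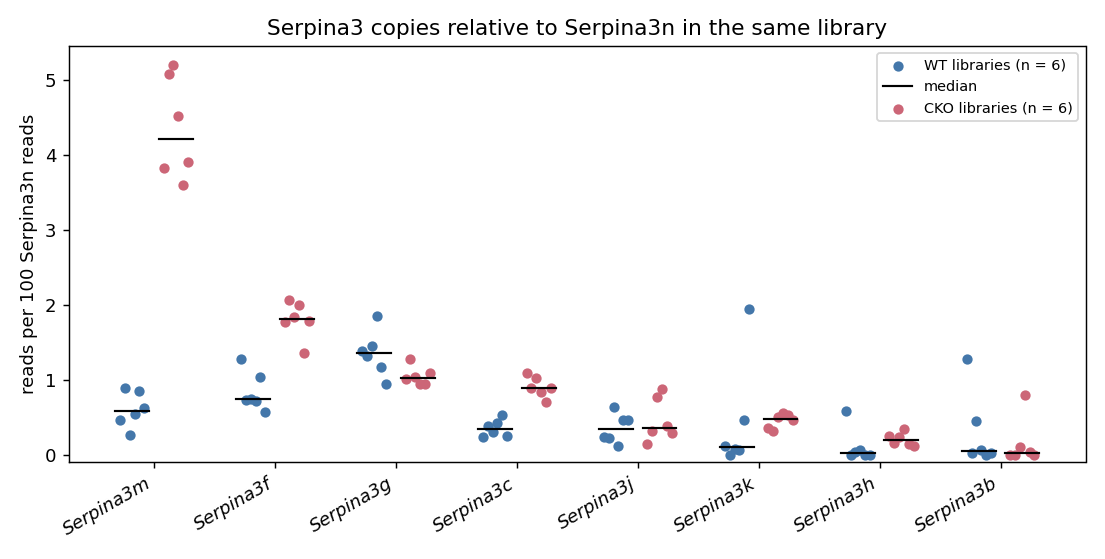
Reads of 8 Serpina3 genes per 100 Serpina3n reads of the same library (y axis), for 6 WT and 6 CKO libraries. Serpina3m libraries sit at 0.26 to 0.888 in WT and 3.6 to 5.19 in CKO, Serpina3f and Serpina3c separate by less, and Serpina3g overlaps.

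Close copies can take each other's reads, and the sources used here do not give the read length. The 50-base windows of the longest annotated transcript of each gene were searched. Of these, 1.12% of those of Serpina3m, 1.16% of Serpina3c, 0.955% of Serpina3f and 2.91% of Serpina3g also occur letter for letter in Serpina3n. With up to 2 mismatches allowed the shares were 10.8%, 7.67%, 8.28% and 9.58%. Of the windows of Serpina3n itself, 6.9% occur letter for letter in some other copy of the cluster, and 27.8% with up to 2 mismatches. Windows shared among the other copies, such as Serpina3m and Serpina3k, were not counted, so these shares do not cover reads traded between them. The tables hold counts and not reads, so how reads of such stretches were placed was not tested.

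Among the Serpina3 genes outside the 9, Serpina3e-ps, a pseudogene, had 157 reads in WT and 686 in CKO pools (1.23 ± 0.3 and 4.55 ± 0.556 CPM), with no overlap of pools. Serpina3l-ps, also a pseudogene, had 0 reads in all 6 WT libraries and 64 in CKO, 7 to 14 per library. The largest share of Serpina3i, 80 of its 82 CKO reads, was in 1 library of CKO pool 2. Serpina3a had 9 reads in WT and 7 in CKO, and Serpina3d-ps 2 and 2. Pseudogene values carry the same doubt over shared reads as the other copies.

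Most genes around the cluster had too few reads to be tested, and the tested ones had log2 fold changes near 0. The 9 genes span 286 kb. Within 500 kb of the ends of the whole run of Serpina3 genes, which starts with Serpina3a, 34 other genes were in the tables, of which 4 were tested. Their log2 fold changes lay between -0.2 and 0.19, with 0 at an unadjusted p under 0.05 in edgeR. Clmn, the most abundant, had 94.5 ± 13.0 CPM in WT against 91.1 ± 26.3 in CKO pools (-0.05). Dicer1, which encodes the enzyme that cuts microRNA precursors, had a log2 fold change of 0.19 (SE 0.83), and Gm8918, a pseudogene inside the cluster, -0.20 (SE 0.48). The other tested neighbour, Ppp4r4, had 0.14 (SE 0.71). With errors of this size, larger differences in these genes could have been missed.

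Serpins beyond the 9 genes were compared in the same fit. The 17 other clade A serpins looked up, Serpina3a and Serpina3i among them, were all too low to test and summed to 0.0593 to 2.81 CPM in WT against 0.059 to 6.89 in CKO pools. Among serpins of other clades, 16 of 22 were tested, 9 log2 fold changes were above 0, the median was 0.05, and 0 had an unadjusted p under 0.05 (edgeR), against 3.01% of all genes for higher and 2.9% for lower. Serpine2, which encodes protease nexin-1, had 3370 ± 569 CPM in WT against 3100 ± 151 in CKO pools, and is named here as the most abundant serpin, chosen after its values were seen. Serpinb8 (2.28, SE 1.61) and Serpinb9 (0.69, SE 0.75), an inhibitor of granzyme B, had the smallest p among those with values above 0, and Serpinb1b (-1.95, SE 1.32) and Serpinb6a (-0.30, SE 0.27) among those below. Of 26 proteases looked up, 11 were tested and 2 were above 0 (median log2 fold change -0.25). Plat, which encodes tissue plasminogen activator, had 134 ± 49.7 CPM in WT against 69.2 ± 11.2 in CKO pools (-0.95, SE 0.33) and was the only 1 of them with an unadjusted p under 0.05. Ctsl had -0.57, Htra1 0.43 and Ctss 0.22, and the classic chymotrypsin-like targets of alpha-1-antichymotrypsin, Ctsg and Cma1, had too few reads to test.

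Serpina3n is used as a marker of reactive astrocytes, and the other markers of that state lay on both sides of 0. Of 11 tested genes shared by injury types, 6 were above 0, with a median log2 fold change of 0.07, and 1 had an unadjusted p under 0.05 (edgeR). That was Cxcl10, a chemokine, at 0.345 ± 0.478 CPM in WT against 2.76 ± 0.866 in CKO pools (2.99, SE 1.23). Gfap, the astrocyte intermediate filament, had 838 ± 60.1 CPM in WT against 1200 ± 452 in CKO pools (0.52, SE 0.28), Osmr, the oncostatin M receptor, -0.75, and Hspb1, a small heat shock protein, -1.97. Of 11 inflammation-type genes 5 were above 0 (median -0.19). H2-D1, a class I histocompatibility gene, had 250 ± 33.9 CPM in WT against 135 ± 8.66 in CKO pools (-0.89, SE 0.2), the only unadjusted p under 0.05 in that list, while H2-T23 had -0.54, Gbp2 2.53 and Amigo2 0.79. Of 9 ischaemia-type genes 4 were above 0 (median -0.61), and Ptx3, a secreted pattern recognition protein, had 1.13 ± 0.596 CPM in WT against 6.58 ± 1.49 in CKO pools (2.53, SE 0.72, unadjusted p under 0.05). In the same list Cd14 had 1.97, S100a10 -0.61 and Sphk1 -1.56. Of all genes, 3.01% were higher and 2.9% lower at an unadjusted p under 0.05. In these lists, as over all genes, edgeR called 0 after adjustment.

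Serpina3n is a known target of gp130 cytokines acting through STAT3, of NF-kB and of glucocorticoids. Of 18 tested genes of gp130 and STAT3 signalling, 15 were above 0, against 47.2% of all genes, with a median log2 fold change of 0.43. In edgeR 2 had an unadjusted p under 0.05, both higher in CKO, against 3.01% of all genes. These were Il6ra, the interleukin-6 receptor, at 0.319 ± 0.221 CPM in WT against 2.44 ± 2.08 in CKO pools (2.93, SE 1.05), and Jak2, a kinase of the pathway, at 8.89 ± 3.43 and 20.2 ± 7.24 CPM (1.18, SE 0.49). Osmr (-0.75) and Socs2 (-0.73), a feedback inhibitor, lay below 0. Of 21 NF-kB genes 8 were above 0 (median -0.24), with Relb at 1.87, Nfkb2 at 1.15, Rela at -0.63 and Tnfaip3 at -1.41. Of 17 glucocorticoid response genes 8 were above 0 (median -0.07). Nr3c1, the glucocorticoid receptor, had 80.6 ± 11.9 CPM in WT against 122 ± 34.1 in CKO pools (0.59, SE 0.27), and Pdk4 had 0.53, Mt2 -0.58 and Hif3a -0.68. Of 11 acute phase genes 6 were above 0 (median 0.07), with A2m, a broad protease inhibitor, at 10.9 ± 8.47 and 25.4 ± 3.05 CPM (1.21, SE 0.59). Lcn2 had 2.08 (SE 2.01), with 0, 0.269 and 4.13 CPM in CKO pools 1, 2 and 3. Lbp had -3.79 (SE 1.95), at means of 1.14 CPM in WT and 0.0822 in CKO pools. In the NF-kB, glucocorticoid and acute phase lists 0 genes had an unadjusted p under 0.05, and in all 4 lists edgeR called 0 after adjustment, as over all genes.

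**Figure D4:**
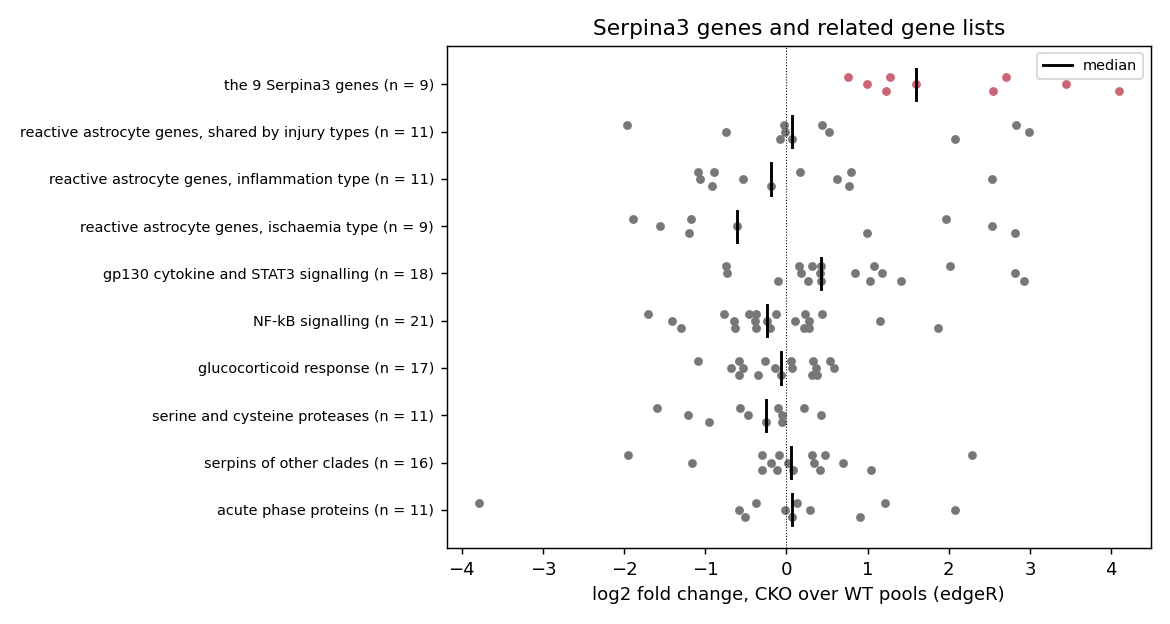
Log2 fold change of CKO over WT pools (x axis, edgeR) for each tested gene of the Serpina3 cluster and of the related gene lists, 1 point per gene. The 9 Serpina3 genes lie between 0.76 and 4.09, and the other lists lie on both sides of 0, with medians from -0.61 (ischaemia type) to 0.43 (gp130 and STAT3).

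Serpina3n was also set against the markers of cell types in the same library. Per 1000 CPM of summed astrocyte markers it had 5.49 to 13.9 CPM in WT (median 9.83) and 12.7 to 26.3 CPM in CKO libraries, so that the ranges met at their ends. Per 1000 CPM of mature oligodendrocyte markers, cells that also express Serpina3n in disease, it had 13.5 to 57.7 CPM in WT (median 30.6) and 46.3 to 86.3 CPM in CKO (median 75.9). Per 1000 CPM of radial glia-like markers it had 11.1 to 75.7 CPM in WT and 67.3 to 126 CPM in CKO. Per 1000 CPM of oligodendrocyte precursor markers it had 30.3 to 208 CPM in WT and 85.4 to 679 CPM in CKO, and per 1000 CPM of microglial markers 129 to 675 and 339 to 1540 CPM. In each of these the CKO median was higher and the libraries overlapped, whereas Serpina3n CPM alone did not overlap. Microglial markers summed to 271 to 354 CPM in WT against 248 to 695 in CKO pools, neuroblast markers to 122 to 232 and 228 to 279 CPM, and endothelial markers to 1.3 to 106 and 9.61 to 38.2 CPM. The pool at 695 CPM was CKO pool 3, which also had the lowest sum of oligodendrocyte precursor markers (707 CPM, against 1220 to 2180 in the others). Hepatocyte markers, counted because liver expresses much of the cluster, summed to 2.89 to 5.42 CPM in WT and 0.728 to 2.62 CPM in CKO, and 1 of the 6, Apoa1, had enough reads to be tested. The part that cell composition has in the difference was not tested.

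Across the 6 pools, the genes whose log2 CPM was most like that of Serpina3n among 7527 well-expressed genes were Prc1 (r = 0.992), Chfr (0.986), Tprn (0.986), Srm (0.984) and Naa15 (0.982). Over the 12 libraries their r was 0.512, 0.713, 0.426, 0.365 and 0.214. Genes picked for the highest r over the pools tend to have a lower r elsewhere, so nothing is read from this fall. The cluster's own Serpina3g, Serpina3c, Serpina3m and Serpina3f, which were not picked by r, had 0.959, 0.94, 0.916 and 0.906 over the 12 libraries. Within genotypes, after removing each genotype's mean, these 4 had r of 0.89, 0.852, 0.797 and 0.816 over the 12 libraries. Library 1 of WT pool 1 was the lowest WT library in Serpina3n (37.2 CPM) and in all 4, and r without it was not computed. Serpina3j had 0.814 over the 12 libraries and 0.674 within genotypes, and Serpina3k 0.765 and 0.545. Serpina3h, with few reads, had 0.552 and turned to -0.615 within genotypes, and Serpina3b had -0.092 and -0.163. The points share pools, depth and, between copies, possibly reads, and the values are given as a description.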

How the data were processed

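RNA-seq read counts per gene were deposited by the authors for 24 runs, raw and not normalised. Bowtie2, HTSeq and GRCm38 are named, per the submitters' processing notes, without versions; annotation and counting settings are not given in the sources used here. Smart-Seq2 and Nextera XT libraries, per the labels' protocols, do not mark strand. Lines that name no gene were left out. They held 16.0% to 35.3% of reads outside genes, 2.51% to 3.43% ambiguous and 11.2% to 21.7% not aligned. Reads listed as aligned at several places, or as too low in alignment quality, numbered 0. Whether reads that could be placed at several sites were marked at all is not known, so that 0 does not show their absence. Lanes of a library differed by about the sampling noise (chi-square per degree of freedom 0.981 to 1.01, smallest p 0.204), and the 4 runs of each pool were summed.

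Counts of 3 WT and 3 CKO pools were fitted with edgeR 4.0.16 in R 4.3.3 (filterByExpr, TMM, robust quasi-likelihood F test, Benjamini-Hochberg adjustment over all 21477 genes, threshold 0.05), a step checked on simulated data. The biological coefficient of variation was 0.725. P-values reflect only how these pools vary, which may be technical, and reads without molecular identifiers make depth a limit on counting error only.

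Coding sequences were aligned with mafft 7.526. Levels per kilobase use exon lengths of GENCODE M21. The genes and the lists were chosen with earlier results of these data known. The text names the 9 genes, Notch2, the 2 genes of each list with the smallest p in each direction, the 3 most abundant tested neighbours and the 5 genes most like Serpina3n. Alternatives were another normalisation, filter and tool, a replicate block, single libraries and leaving out each pool.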

Additional observations from a re-analysis of the deposited data

How the results depend on the processing

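The log2 fold changes of Serpina3n (1.28) and Serpina3m (4.09) and the log2 ratio of the summed cluster (1.35) kept their direction under each alternative in which they were computed. They moved most with the library used: library 1 of each pool alone gave 1.80, 4.83 and 1.86, and library 2 alone 0.89, 3.59 and 0.97. Leaving out 1 pool at a time gave 1.17 to 1.47, 3.85 to 4.39 and 1.24 to 1.55. Scaling by total reads gave 1.38, 4.21 and 1.45, no filter 1.30 and 4.11, and limma-voom 1.36 and 4.45. The sum was not computed without the filter, under limma-voom or with the block.

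Serpina3b reversed to -2.21 with limma-voom, -0.28 with the replicate block and -3.14 without CKO pool 2 (up to 1.83 without CKO pool 1), and Serpina3k to -0.10 with library 2 alone. The cause was not tested, though Serpina3b rested on 53 reads of 1 library. Serpina3k had 4.70 without WT pool 3.

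No gene of the 21477 had an edgeR adjusted p under 0.05, with 1269 at an unadjusted p under 0.05, whereas DESeq2 called 124 genes, 80 higher and 44 lower in CKO. The other alternatives gave 0. WT and CKO pools share numbers in the labels, which do not say whether same-numbered pools were handled together. Deviations of same-numbered pools correlated at 0.034, -0.006 and -0.029, which cannot settle this. A fit with the replicate block gave 1.30 for Serpina3n, 4.16 for Serpina3m and 0 genes.

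Depth limits the low copies: 3 reads in a pool equal 0.0526 to 0.0795 CPM, above the WT mean of Serpina3h (0.0487 CPM).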
